A study of Homo sapiens with 18 samples.

Results

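The genes described are 10 members of the TGF-beta superfamily and its nearest regulators: the activin subunit genes INHBE, INHBA and INHBB, the ligand genes GDF15, TGFB1, TGFB2 and BMP4, the activin antagonist FST, the secreted matrix protein TGFBI and the inhibitory signal carrier SMAD7. They were chosen by name, out of 19775 genes that had a probe set assigned to 1 gene, and each was read from the probe set that averaged highest across the 18 arrays. RNA was measured on Affymetrix HG-U133 Plus 2.0 arrays in HK-2 cells, an immortalized line made from human proximal tubule epithelium and grown with EGF, hydrocortisone, insulin and transferrin. The 6 groups were control treatments of a wider toxicity study: medium alone, DMSO and ethanol, each for 24 h or 48 h, with 3 biological replicates. DMSO and ethanol are solvents for test compounds, at concentrations the labels do not state. The text on the series gives 12 h where the sample labels give 24 h, and the labels were followed. All groups come from the same cell line, so the replicates show the spread between cultures and not between people.

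Values are on the deposited log2 scale, where a difference of 1 is a doubling, and a probe set was tested where it was above 4 on at least 3 of 18 arrays. That left 10832 genes, among them 7 of the 10 members. Array medians lay between 2.86 and 2.95. Both ethanol replicate 3 arrays stood apart from the rest on the second principal component (30.7% of the variance), with scores of -52.3 at 24 h and -61.6 at 48 h against -21.2 to 20.5 on the other 16. Calls of members that use ethanol arrays are therefore given with and without these arrays, and those on other genes where stated. Of 13 tubule epithelium markers with a probe set, 7 were above 4 on every array, and GGT1, ANPEP, LRP2, CUBN, AQP1 and SLC34A1, genes of the mature proximal tubule, were above it on none. Endothelial markers (5) and leukocyte markers (4) were above 4 on no array, while 3 of 7 fibroblast markers, COL1A1, DCN and LUM, were above it on all.

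Ligands of this superfamily are secreted as dimers and bind pairs of serine/threonine kinase receptors, which phosphorylate SMAD proteins that enter the nucleus. TGF-beta and activin signal mainly through SMAD2 and SMAD3, BMPs through SMAD1, SMAD5 and SMAD9, and all share SMAD4. In the kidney tubule TGF-beta is best known for driving matrix production and fibrosis, and activin A, a dimer of the INHBA product, is induced in injured kidney. GDF15 is a distant member that signals through the receptor GFRAL and RET in the brainstem, and it is a widely used marker of cell stress. INHBE encodes the activin beta-E subunit, best known as a liver product. Both INHBE and GDF15 are known targets of the integrated stress response, in which ATF4 and CHOP (the product of DDIT3) raise transcription when translation is restrained.

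The bases just before the start site are shown for 3 members that moved in these data, GDF15 upward and INHBA and TGFBI downward with time, so that their promoters can be read beside their values. The sequences are from RefSeq on GRCh38.p14, 250 bases each, 5′ to 3′ on the gene's strand. Capitals mark the TATA box letters TATAAA and the CCAAT box letters CCAAT, which read ATTGG on the opposite strand. GDF15 lies at chr19:18385908-18386157 (plus strand), INHBA at chr7:41703091-41703340 (minus strand) and TGFBI at chr5:136028738-136028987 (plus strand).
GDF15: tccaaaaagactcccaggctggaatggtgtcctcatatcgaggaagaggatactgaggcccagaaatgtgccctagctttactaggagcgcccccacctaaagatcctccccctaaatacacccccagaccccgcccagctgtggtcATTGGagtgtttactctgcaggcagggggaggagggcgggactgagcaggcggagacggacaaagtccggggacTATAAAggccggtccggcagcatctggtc
INHBA: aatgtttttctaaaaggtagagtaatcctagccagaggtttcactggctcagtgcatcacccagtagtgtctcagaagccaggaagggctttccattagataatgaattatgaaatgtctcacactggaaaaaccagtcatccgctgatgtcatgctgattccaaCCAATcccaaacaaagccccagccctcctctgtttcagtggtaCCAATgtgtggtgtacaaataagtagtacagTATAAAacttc
TGFBI: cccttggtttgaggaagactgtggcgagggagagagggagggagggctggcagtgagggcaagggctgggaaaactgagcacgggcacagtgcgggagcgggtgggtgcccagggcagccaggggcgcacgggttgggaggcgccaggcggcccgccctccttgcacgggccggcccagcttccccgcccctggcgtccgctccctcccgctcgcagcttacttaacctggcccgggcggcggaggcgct
GDF15 has TATAAA starting 29 bases before the start site and ATTGG 103 bases before it. INHBA has TATAAA 11 bases before the start and CCAAT at 85 and 42 bases. The TGFBI window holds neither and is 72.8% G or C, against 58.4% for GDF15, 42.8% for INHBA and a median of 58.0% over 35116 windows of the same length. TATAAA on either strand was present in 10.7% of those windows and CCAAT in 32%, so these letters are common. Windows were listed for 9 of the 10 genes, the exception being INHBE. The letters TGATGNAA, a C/EBP-ATF element searched on both strands, were in 3.14% of all windows and in no window of the 9 genes. The SMAD element letters CAGAC were in 38% of windows. Of the 3 sequences shown they were in GDF15 alone, 125 bases before the start. Of the genes whose windows are not shown, TGFB2, BMP4 and SMAD7 had them as well.

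With ethanol for 48 h, transcripts of 2 stress-linked ligands were higher than in medium: INHBE by 8.77-fold and GDF15 by 3.48-fold. The arrays read whole cultures, in which more expressing cells and more RNA per cell cannot be told apart. These were 2 of the 7 members tested and none was lower, where of the 10832 genes 7.8% rose and 7.47% fell (15.3% in all). At 24 h with ethanol none of the 7 passed (0.0739% of all genes did). Of the 7, 2 (TGFB1 and SMAD7) had an unadjusted p under 0.05, as did 965 of the 10832 genes. Against DMSO, which is not independent because it uses the same ethanol arrays, INHBE and GDF15 rose at 48 h as well (8.55% of all genes rose and 9.31% fell, 17.9% in all), and at 24 h none passed (0.619%). Between 24 h and 48 h in ethanol, INHBE and GDF15 rose and TGFBI fell, 3 of 7 where 23% of all genes changed (11.7% rose and 11.3% fell). Left without both ethanol replicate 3 arrays, INHBA and SMAD7 passed as lower at 24 h, 2 of 7 against medium (1.33% of all genes) and against DMSO (2.51%). At 48 h in that fit INHBE and GDF15 passed against medium (17.3%), and INHBE, GDF15, INHBA and TGFB1 against DMSO (21.2%).

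**Figure D1:**
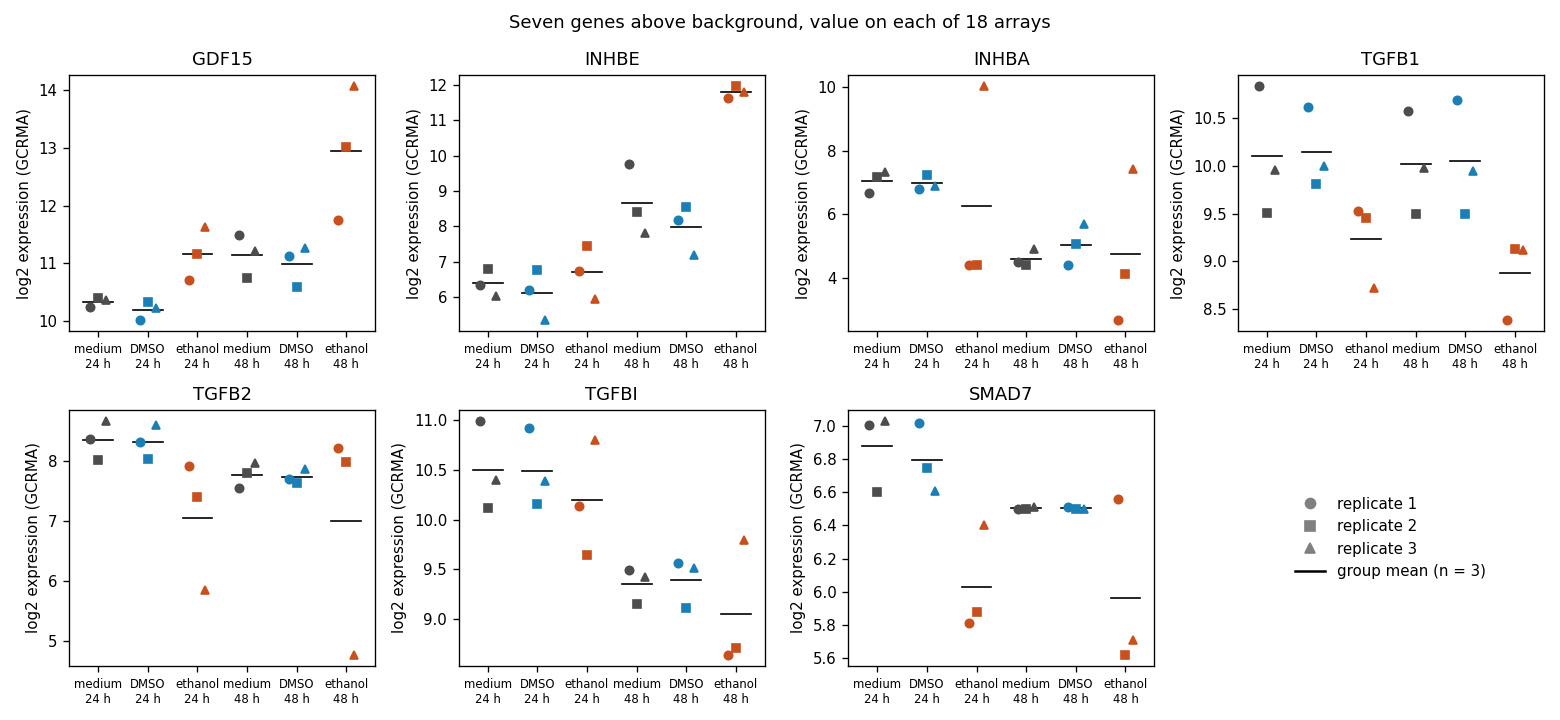
Log2 expression of the 7 tested genes on each of the 18 arrays, by treatment and time; symbols give the replicate number and lines the group mean (n = 3). INHBE on the ethanol 48 h arrays lies between 11.62 and 11.96, above the 15 other arrays, and INHBA on both ethanol replicate 3 arrays (10.02 and 7.41) lies above replicates 1 and 2 of its group.

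INHBE was read from probe set 210587_at, its single probe set with 1 gene. In medium the log2 values for replicates 1 to 3 were 6.35, 6.80 and 6.03 at 24 h and 9.78, 8.41 and 7.81 at 48 h. With DMSO they were 6.21, 6.76 and 5.36 at 24 h and 8.17, 8.55 and 7.19 at 48 h. With ethanol they were 6.75, 7.45 and 5.95 at 24 h and 11.62, 11.96 and 11.81 at 48 h. The 24 h groups overlapped one another, every 48 h array was above every 24 h array of its own treatment, and the ethanol 48 h arrays were above the rest. In means the order was ethanol 48 h (11.80 ± 0.17, SD, n = 3), medium 48 h (8.67 ± 1.01), DMSO 48 h (7.97 ± 0.70), ethanol 24 h (6.72 ± 0.75), medium 24 h (6.39 ± 0.39) and DMSO 24 h (6.11 ± 0.71). Neighbours in that order after the first differed by less than their spread, except DMSO 48 h and ethanol 24 h.

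INHBE was higher with ethanol than with medium at 48 h by 3.13 ± 0.50 (SE; limma, adjusted p = 0.0012), and than with DMSO by 3.83 ± 0.50 (limma, adjusted p = 0.000246). The difference from medium was 3.12 ± 0.55 when both ethanol replicate 3 arrays were left out (limma, adjusted p = 0.00282). It passed against medium under each of the 28 alternatives run, with limma adjusted p between 0.000115 and 0.0483. At 24 h the ethanol difference from medium was 0.32 ± 0.50 (limma, adjusted p = 0.925). From 24 h to 48 h in ethanol it rose by 5.08 ± 0.50, a 33.9-fold change (limma, adjusted p = 2.03e-05), and by 4.69 ± 0.60 with those arrays left out (limma, adjusted p = 0.000357). In medium the same step was 2.27 ± 0.50 (limma, adjusted p = 0.333), and it passed with the replicate number as a block (limma, adjusted p = 0.00835). In DMSO it was 1.86 ± 0.50 (limma, adjusted p = 0.35), and it also passed with the block (limma, adjusted p = 0.0317). The step in ethanol exceeded the step in medium by 2.81 ± 0.71. This difference between differences did not pass (limma, adjusted p = 0.0677; 1.59% of all genes did and none of the 7 members, where 1 member and 1497 of the 10832 genes had an unadjusted p under 0.05). With the replicate number as a block it passed (2.81 ± 0.50, limma adjusted p = 0.00874), although same-numbered arrays of ethanol 48 h and medium 48 h did not deviate together. It passed with array weights too (limma, adjusted p = 0.0384), and it did not with both ethanol replicate 3 arrays left out (2.42 ± 0.77, limma adjusted p = 0.127; 2.18% of all genes). It passed without 1 of 3 arrays in turn: medium 48 h replicate 1 (3.36, limma adjusted p = 0.0183), ethanol 24 h replicate 2 (3.17, limma adjusted p = 0.0483) or ethanol 48 h replicate 1 (2.90, limma adjusted p = 0.0443).

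GDF15 was read from probe set 221577_x_at, a type of set whose probes may also match other transcripts. Its 2 other probe sets stayed near background, between 2.02 and 2.86 on every array, so the GDF15 result rests on 1 probe set. In medium its values were 10.25, 10.39 and 10.37 at 24 h and 11.49, 10.75 and 11.21 at 48 h. The DMSO arrays read 10.02, 10.33 and 10.23 at 24 h and 11.13, 10.58 and 11.26 at 48 h. The ethanol arrays read 10.71, 11.16 and 11.63 at 24 h and 11.75, 13.02 and 14.07 at 48 h. The ethanol arrays lay above the medium and DMSO arrays of the same time, and each 48 h group lay above its own 24 h group. In means the order was ethanol 48 h (12.94 ± 1.16, SD, n = 3), ethanol 24 h (11.17 ± 0.46), medium 48 h (11.15 ± 0.38), DMSO 48 h (10.99 ± 0.36), medium 24 h (10.33 ± 0.08) and DMSO 24 h (10.20 ± 0.16). Ethanol 24 h, medium 48 h and DMSO 48 h differed by less than their spread, and so did the last pair.

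At 48 h GDF15 was higher with ethanol than with medium by 1.80 ± 0.42 (limma, adjusted p = 0.0103) and than with DMSO by 1.95 ± 0.42 (limma, adjusted p = 0.00542). Fitted on the arrays of the compared groups alone, these calls were lost (limma, adjusted p = 0.143 and 0.115). When both ethanol replicate 3 arrays were left out, the difference from medium was 1.24 ± 0.32 (limma, adjusted p = 0.0188). At 24 h the ethanol difference of 0.83 ± 0.42 did not pass (limma, adjusted p = 0.605). From 24 h to 48 h GDF15 rose by 1.78 ± 0.42 in ethanol (limma, adjusted p = 0.00724), a call also lost on those groups alone (limma, adjusted p = 0.157) and kept without both replicate 3 arrays (1.45 ± 0.35, limma adjusted p = 0.0125). The same step was 0.81 ± 0.42 in medium and 0.80 ± 0.42 in DMSO (limma, adjusted p = 0.475 and 0.525). The ethanol and medium steps differed by 0.96 ± 0.59 (limma, adjusted p = 0.532), and by 1.56 without ethanol 48 h replicate 1 (limma, adjusted p = 0.0478).

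INHBA, the activin A subunit gene, had the widest spread between replicates of a group among the 7 tested genes. It was read from probe set 210511_s_at. Its values in medium were 6.67, 7.16 and 7.33 at 24 h and 4.49, 4.39 and 4.91 at 48 h. In DMSO its values were 6.78, 7.25 and 6.88 at 24 h and 4.39, 5.07 and 5.68 at 48 h. In ethanol its values were 4.39, 4.40 and 10.02 at 24 h and 2.68, 4.12 and 7.41 at 48 h. In medium and DMSO each 48 h array was below each 24 h array, whereas the ethanol groups spanned the others: replicates 1 and 2 were low and replicate 3 was the highest of its time. The ethanol means were 6.27 ± 3.24 (SD, n = 3) at 24 h and 4.74 ± 2.42 at 48 h, against 7.05 ± 0.34 and 4.60 ± 0.28 in medium and 6.97 ± 0.25 and 5.05 ± 0.64 in DMSO. The medium and DMSO means at one time differed by less than their spread.

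The second INHBA probe set, 227140_at, had the same arrangement. Ethanol replicates 1 to 3 read 3.92, 4.06 and 9.11 at 24 h and 3.82, 3.68 and 7.23 at 48 h there, while medium read 6.90, 6.53 and 6.58 at 24 h and 5.00, 5.34 and 5.27 at 48 h. The third, 204926_at, was at 6.06 on ethanol 24 h replicate 3 and between 2.90 and 3.64 on the 17 other arrays. Thus 3 probe sets of the gene read high on the ethanol 24 h replicate 3 array. Whether this array's standing apart has a part in the INHBA level was not tested.

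With all arrays, the INHBA difference between ethanol and medium was -0.78 ± 1.25 at 24 h and 0.14 ± 1.25 at 48 h (limma, adjusted p = 0.926 and 0.959). With both ethanol replicate 3 arrays left out INHBA was lower with ethanol at 24 h, by -2.66 ± 0.40 against medium (limma, adjusted p = 0.00836) and -2.57 ± 0.40 against DMSO (limma, adjusted p = 0.00685). At 48 h without them the differences were -1.19 ± 0.40 against medium (limma, adjusted p = 0.0543) and -1.64 ± 0.40 against DMSO (limma, adjusted p = 0.0118). The mean of the 2 ethanol arrays left at 48 h was 3.40, under the level of 4, so the size of these 48 h differences is not exact. Those left at 24 h read 4.39 and 4.40, and 3.92 and 4.06 on the second probe set. These are near that level, so the size at 24 h is not exact either. Replicate 3 exceeded the mean of replicates 1 and 2 by 5.62 at 24 h and 4.01 at 48 h. The direction at 48 h against medium thus turns on which ethanol replicates are read. So does that at 24 h, where the difference from medium was 0.15 without ethanol 24 h replicate 1 or without replicate 2. The calls at 24 h rest on the 2 ethanol arrays left.

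**Figure D2:**
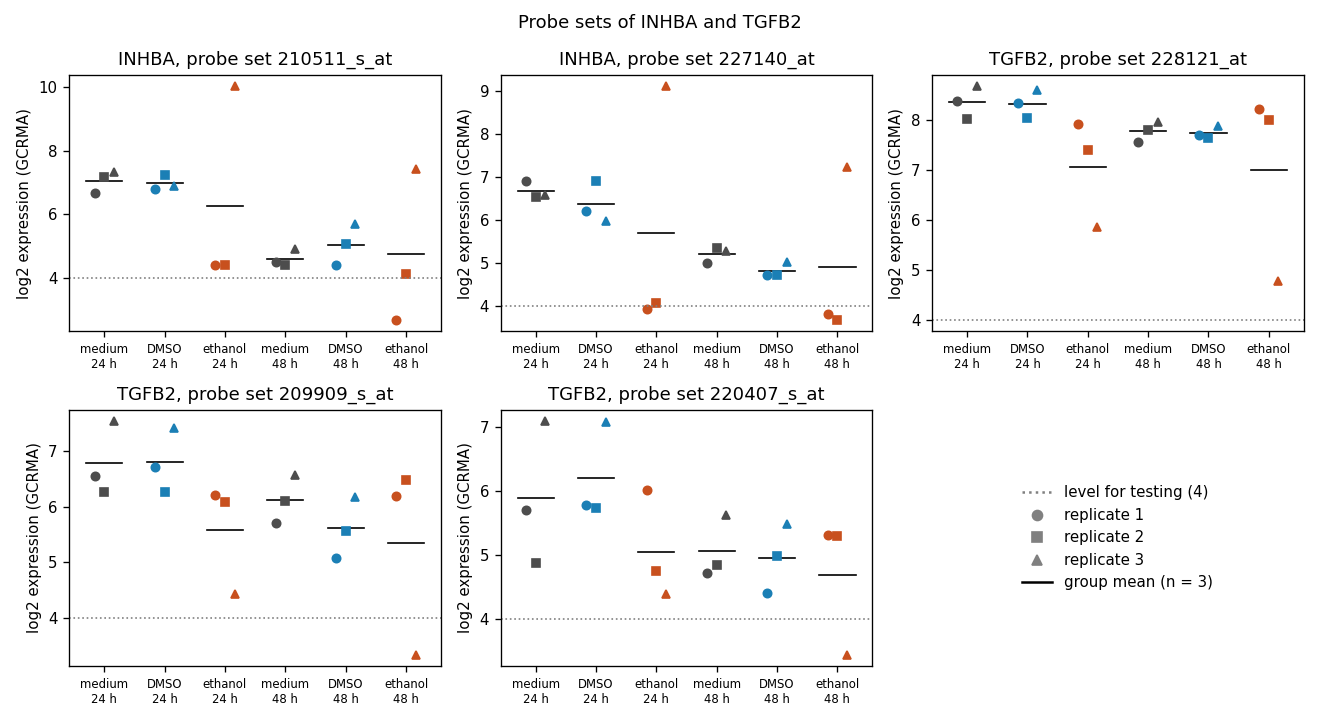
Log2 values of the 2 tested INHBA probe sets and the 3 tested TGFB2 probe sets on each of 18 arrays, with group means (n = 3) as lines and the level of 4 used for testing as a dotted line. On both ethanol replicate 3 arrays the INHBA probe sets read above replicates 1 and 2 of the group, and the TGFB2 probe sets read below them.

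TGFB1, the ligand most tied to kidney fibrosis, was read from 203085_s_at, and its other probe set stayed between 3.33 and 3.91. Its values in medium were 10.83, 9.51 and 9.96 at 24 h and 10.57, 9.50 and 9.98 at 48 h. DMSO gave 10.62, 9.81 and 10.00 at 24 h and 10.69, 9.50 and 9.95 at 48 h. Ethanol gave 9.53, 9.45 and 8.72 at 24 h and 8.39, 9.13 and 9.12 at 48 h. Replicate 1 was the highest of each medium and DMSO group, and at 48 h every ethanol array was below every medium and DMSO array. The medium and DMSO means lay between 10.02 and 10.14, close to one another, above ethanol at 24 h (9.23 ± 0.45, SD, n = 3) and 48 h (8.88 ± 0.42), which differed by less than their spread. The ethanol difference from medium was -0.87 ± 0.39 at 24 h and -1.13 ± 0.39 at 48 h, and neither passed (limma, adjusted p = 0.534 and 0.0646). Against DMSO at 48 h it was -1.16 ± 0.39 (limma, adjusted p = 0.0535), which passed without DMSO 48 h replicate 2 (-1.44, limma adjusted p = 0.0369). Leaving out an array outside this pair of groups also carried it past the threshold, namely medium 24 h replicate 1 or 2, or ethanol 24 h replicate 3 (limma, adjusted p = 0.0409, 0.0495 and 0.0418).

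TGFB2, a second TGF-beta isoform made by many epithelia, was read from 228121_at. Its values in medium were 8.36, 8.02 and 8.66 at 24 h and 7.55, 7.80 and 7.96 at 48 h. The values with DMSO were 8.32, 8.04 and 8.59 at 24 h and 7.70, 7.63 and 7.87 at 48 h. The values with ethanol were 7.92, 7.40 and 5.85 at 24 h and 8.21, 7.99 and 4.78 at 48 h. Medium and DMSO matched closely and were lower on each 48 h array than on each 24 h array, while both ethanol replicate 3 arrays were lower than any other. Means were 8.35 ± 0.32 (SD, n = 3) and 8.32 ± 0.28 in medium and DMSO at 24 h, 7.77 ± 0.21 and 7.73 ± 0.12 at 48 h, and 7.06 ± 1.08 and 6.99 ± 1.92 with ethanol at 24 h and 48 h. Against medium, ethanol differed by -1.29 ± 0.68 at 24 h and -0.78 ± 0.68 at 48 h (limma, adjusted p = 0.634 and 0.475). With both ethanol replicate 3 arrays left out these differences were -0.69 (limma, adjusted p = 0.16) and 0.33 (limma, adjusted p = 0.321), so the direction at 48 h turned. The 2 other TGFB2 probe sets that were tested, 209909_s_at and 220407_s_at, read 3.34 and 3.45 on ethanol 48 h replicate 3, below their 17 other values.

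The remaining ligand genes and the antagonist were not detected. INHBB, which encodes the activin B subunit, lay between 2.13 and 2.16 on the 18 arrays. FST, whose product follistatin binds and blocks activins, lay between 2.26 and 2.33, and its 2 other probe sets were lower still. BMP4, a ligand of the SMAD1 branch, lay between 2.83 and 3.90, with its highest value on ethanol 48 h replicate 2, just under the level of 4. Values this low are near background and were not compared between groups.

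SMAD7, the inhibitory SMAD that blocks the receptors, was read from 204790_at. Its values in medium were 7.01, 6.60 and 7.03 at 24 h and 6.50, 6.50 and 6.51 at 48 h. On the DMSO arrays they were 7.02, 6.75 and 6.61 at 24 h and 6.51, 6.50 and 6.50 at 48 h. On the ethanol arrays they were 5.81, 5.88 and 6.40 at 24 h and 6.56, 5.62 and 5.71 at 48 h. At 24 h the ethanol arrays were below the medium and DMSO arrays, and at 48 h ethanol replicate 1 was above them while replicates 2 and 3 were below. In means, medium (6.88 ± 0.24, SD, n = 3) and DMSO (6.79 ± 0.21) at 24 h were highest, both 48 h controls followed (6.50 ± 0.01 each), and ethanol was lowest at 24 h (6.03 ± 0.32) and 48 h (5.96 ± 0.52). Neighbours within these 3 pairs differed by less than their spread.

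With ethanol for 24 h SMAD7 differed from medium by -0.85 ± 0.22 (limma, adjusted p = 0.199) and from DMSO by -0.76 ± 0.22 (limma, adjusted p = 0.137). When both ethanol replicate 3 arrays were left out, both differences passed, at -1.04 ± 0.22 (limma, adjusted p = 0.034) and -0.95 ± 0.22 (limma, adjusted p = 0.0368). The DMSO comparison at 24 h passed as well without ethanol 48 h replicate 1, an array outside it (limma, adjusted p = 0.041). At 48 h the difference from medium was -0.54 ± 0.22 (limma, adjusted p = 0.11). Without ethanol 48 h replicate 1 it was -0.84 ± 0.18 and passed (limma, adjusted p = 0.00434), as it did against DMSO (-0.84 ± 0.18, limma adjusted p = 0.00403). This was the 1 alternative of 28 in which either passed. Without both ethanol replicate 3 arrays it was -0.41 ± 0.22 against medium and against DMSO, and neither passed (limma, adjusted p = 0.208 and 0.194).

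**Figure D3:**
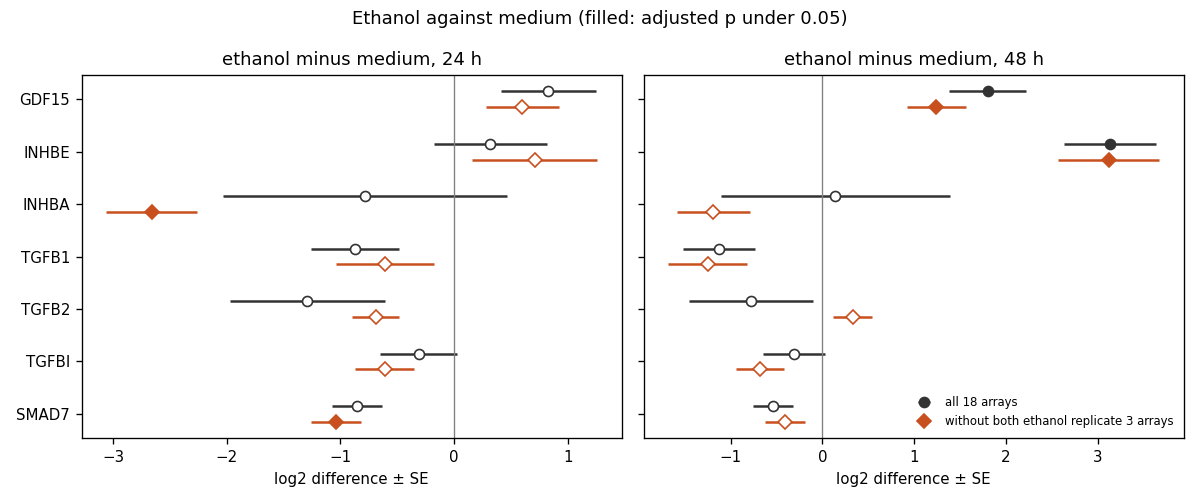
Log2 difference of ethanol from medium (± SE) for the 7 tested genes at 24 h and 48 h, for 18 arrays (circles) and for the 16 without ethanol replicate 3 (diamonds); filled symbols passed at a limma adjusted p under 0.05. INHBE and GDF15 pass at 48 h in both fits, and INHBA at 24 h moves from -0.78 to -2.66.

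TGFBI, a secreted adhesion protein of the matrix named for its induction by TGF-beta, had a lower mean at 48 h than at 24 h in each treatment. It was read from 201506_at. Its values in medium were 10.99, 10.12 and 10.40 at 24 h and 9.49, 9.15 and 9.42 at 48 h. For DMSO they were 10.92, 10.16 and 10.39 at 24 h and 9.56, 9.11 and 9.51 at 48 h. For ethanol they were 10.14, 9.64 and 10.80 at 24 h and 8.64, 8.71 and 9.79 at 48 h. In medium and DMSO each 48 h array was below each 24 h array, and in ethanol replicate 3 at 48 h was above replicate 2 at 24 h. Means at 24 h were 10.50 ± 0.44 (SD, n = 3) in medium, 10.49 ± 0.39 in DMSO and 10.19 ± 0.58 in ethanol, and at 48 h 9.39 ± 0.24 in DMSO, 9.35 ± 0.18 in medium and 9.04 ± 0.65 in ethanol. Within either time neighbours differed by less than their spread. The step from 24 h to 48 h was -1.15 ± 0.34 in medium, -1.10 ± 0.34 in DMSO and -1.15 ± 0.34 in ethanol (limma, adjusted p = 0.333, 0.391 and 0.0243).

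The ethanol and medium steps of TGFBI differed by 0.00 ± 0.48 (limma, adjusted p = 0.999). A difference several times this error could still have failed to pass. The step in ethanol, which passed, did not pass without ethanol 24 h replicate 1 (-1.17) or 3 (-0.85), or without ethanol 48 h replicate 1 (-0.94) or 2 (-0.98), with limma adjusted p of 0.0533, 0.105, 0.0828 and 0.0954. Leaving out both ethanol replicate 3 arrays together, it passed (-1.22 ± 0.29, limma adjusted p = 0.0117; 19% of all genes). It did not pass on the ethanol arrays alone (limma, adjusted p = 0.182) or with no filter on level (limma, adjusted p = 0.0562). The step in medium passed with the replicate number as a block (limma, adjusted p = 0.0328).

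Time in medium and in DMSO moved several members in the same direction on each replicate. With the 18-array fit no member passed in either step, with 0% of all genes passing and 1205 genes in medium and 1105 in DMSO at an unadjusted p under 0.05. INHBE and TGFBI had such a p in both. That fit pools the spread of the ethanol arrays. A fit of the 12 medium and DMSO arrays with the replicate number as a block was chosen after seeing the data. In it 6 of the 7 members passed in medium (29.8% of all genes) and 5 of 7 in DMSO (28.5%). INHBE and GDF15 rose in both, GDF15 by 0.81 ± 0.19 in medium (limma, adjusted p = 0.0117) and 0.80 ± 0.19 in DMSO (limma, adjusted p = 0.0141). INHBA, TGFB2 and TGFBI fell in both.

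INHBA fell by 2.46 ± 0.21 in medium (limma, adjusted p = 0.00018) and by 1.92 ± 0.21 in DMSO (limma, adjusted p = 0.000575), on the log2 scale of that fit. TGFB2 fell by 0.58 ± 0.11 in each (limma, adjusted p = 0.00503 and 0.00572). TGFBI fell by 1.15 ± 0.12 and 1.10 ± 0.12 (limma, adjusted p = 0.000302 and 0.000521). SMAD7 fell in medium by 0.38 ± 0.11 (limma, adjusted p = 0.0326), and TGFB1, at -0.09 in medium and -0.10 in DMSO with all arrays, did not pass in either. In the fit of 16 arrays without both ethanol replicate 3 arrays INHBA was the 1 member that passed in medium (limma, adjusted p = 0.0121; 0.388% of all genes) and in DMSO (limma, adjusted p = 0.0428; 0.277%). With the replicate block over all 18 arrays INHBE and TGFBI passed in medium (4.04% of all genes) and INHBE in DMSO (2.37%).

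**Figure D4:**
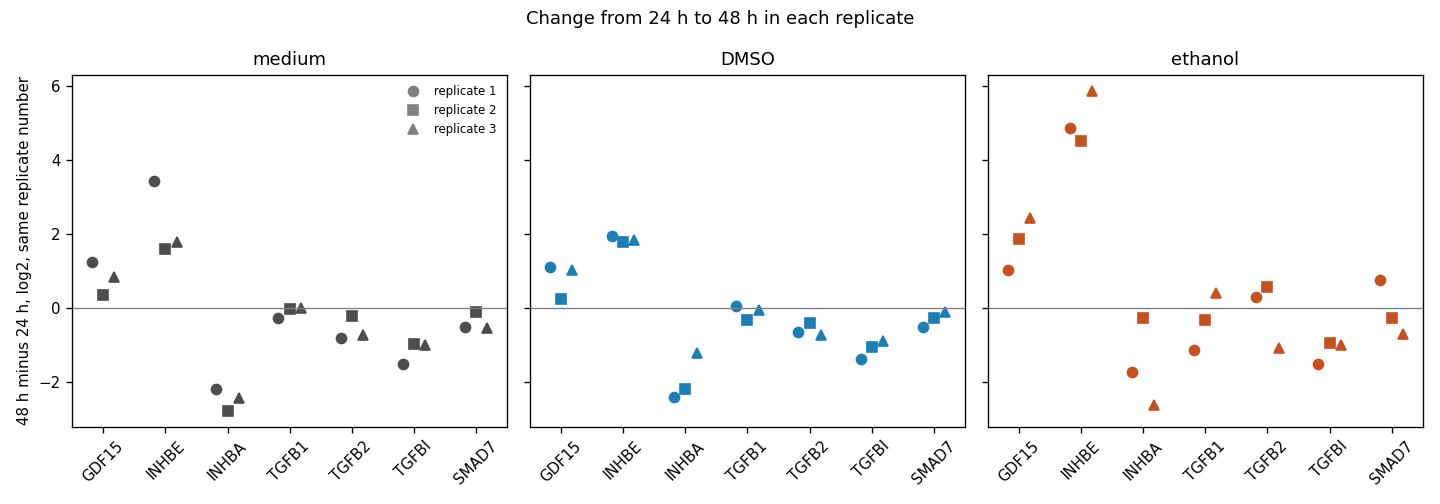
Log2 change from 24 h to 48 h for each tested gene and replicate number, in medium, DMSO and ethanol; each point is 1 pair of arrays with the same replicate number. INHBE and GDF15 lie above 0 and INHBA and TGFBI below 0 in all 9 pairs, and TGFB2 and SMAD7 lie on both sides of 0 in ethanol.

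DMSO and medium were also compared at each time. At 24 h and at 48 h none of the 7 members passed (0% of all genes in each, with 204 and 53 genes at an unadjusted p under 0.05 and no member among them). At 24 h the differences lay between -0.28 (INHBE, ± 0.50) and 0.04 (TGFB1, ± 0.39). At 48 h they lay between -0.70 (INHBE, ± 0.50) and 0.45 (INHBA, ± 1.25). Changes several times these errors can fail to pass, as the INHBE step from 24 h to 48 h in medium did (2.27 ± 0.50, limma adjusted p = 0.333). The values therefore do not show that DMSO and medium act alike. In the fit of 12 arrays with the replicate block no member passed at 24 h (0.102% of all genes) or at 48 h (0%).

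Other genes of the pathway were compared for ethanol against medium at 48 h, where 15.3% of all genes passed. Of 24 other ligand genes 5 were tested, and 1, BMP8B, fell by 1.08 (limma, adjusted p = 0.0279), while BMP2, BMP7, GDF11 and the activin subunit INHBC did not pass. With both ethanol replicate 3 arrays left out, BMP2 passed as well, at 0.76 ± 0.18 (limma, adjusted p = 0.0132; 17.3% of all genes passed in that fit). Of 18 receptor genes 10 were tested and 1 passed: TGFBR2, the type II TGF-beta receptor, fell by 0.86 ± 0.24 (limma, adjusted p = 0.0234). Its values were 10.93, 10.90 and 10.90 in medium and 10.54, 10.32 and 9.28 with ethanol at 48 h, and without both replicate 3 arrays the difference was -0.48 ± 0.09 (limma, adjusted p = 0.00359). The type I receptor TGFBR1 differed by 0.08, the co-receptor TGFBR3 by 0.88 ± 0.46, ACVR1B by 0.17, ACVR2A by 0.34 and BMPR2 by -0.36, and none of these passed in either fit. The median receptor difference was 0.12, against -0.04 over all genes tested.

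Among SMADs and their regulators 17 of 20 were tested and 1 passed, the SMAD phosphatase PPM1A, at 0.32 (limma, adjusted p = 0.0335). SMAD2 differed by 0.16, SMAD3 by 0.74 ± 0.44 and SMAD4 by -0.05, none past the threshold. The calls changed when both ethanol replicate 3 arrays were left out: PPM1A was at 0.28 (limma, adjusted p = 0.0729), SMAD3 passed at 0.89 ± 0.24 (limma, adjusted p = 0.024) and the ubiquitin ligase gene SMURF1 passed at -0.86 ± 0.23 (limma, adjusted p = 0.0214). No gene of this list passed in both fits (15.3% of all genes passed with all arrays and 17.3% without replicate 3).

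Of 27 extracellular inhibitors and activators 14 were tested and none passed at 48 h (15.3% of all genes did), with a median of -0.34. Without both ethanol replicate 3 arrays (17.3% of all genes passed) 1 rose, the BMP antagonist GREM1 (1.48 ± 0.36), and 3 fell: the proteoglycan DCN (-2.06 ± 0.21), LTBP2 (-1.50 ± 0.27) and CHRDL1 (-0.49 ± 0.11). The 48 h array left out read DCN at 12.21, above the medium arrays (11.67 to 11.71). It read LTBP2 at 8.76 and CHRDL1 at 12.12, within the medium values (8.39 to 8.79 and 12.05 to 12.31). GREM1 on it, at 10.99, was above medium (7.48 to 8.14), as on the other ethanol 48 h arrays (9.10 and 9.27). Of 26 genes known as SMAD targets 18 were tested and 2 passed with ethanol at 48 h (15.3% of all genes did). ID1, a BMP target, fell by 1.35 (limma, adjusted p = 0.00773), and BHLHE40 fell by 0.73 (limma, adjusted p = 0.0232). None rose and the median was -0.34. Without both replicate 3 arrays 4 of 18 fell (17.3% of all genes passed), of which 1, ID1, was shared with the 2, and BHLHE40 was at -0.64 (limma, adjusted p = 0.0644). At 24 h 1 of 18 passed (0.0739% of all genes): TAGLN, a smooth muscle gene, fell by 2.77 (limma, adjusted p = 0.0486), to under 4 with ethanol. TAGLN was above 4 on the medium and DMSO 24 h arrays alone (7.21, 4.39 and 5.72 in medium). It entered the test only through groups where it is high, so its fall is not exact and its call carries no weight of its own. Without both replicate 3 arrays 3 of 18 fell at 24 h (1.33% of all genes passed). They were TAGLN, with the same limit, CCN2 (-1.31 ± 0.26) and PMEPA1 (-0.94 ± 0.15).

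Over the step from 24 h to 48 h in ethanol, BMP2 rose by 1.10, BAMBI, a decoy receptor, by 1.07 and the SMAD repressor SKIL by 0.61, and CHRDL1 fell by 0.51, TGM2 fell by 1.33 and KLF10 fell by 0.84 (limma, adjusted p = 0.0191, 0.0314, 0.0416, 0.00919, 0.0423 and 0.0244). These were 1 of 5 other ligands, 1 of 10 receptors, 1 of 17 SMADs and regulators, 1 of 14 extracellular factors and 3 of 18 targets, SKIL being on 2 lists, where 23% of all genes passed (11.7% rose and 11.3% fell). With both ethanol replicate 3 arrays left out BMP2, CHRDL1 and TGM2 passed again, at 1.67, -0.59 and -1.37. BAMBI (0.85), SKIL (0.53) and KLF10 (-0.74) did not (limma, adjusted p = 0.117, 0.131 and 0.0821).

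INHBE and GDF15 were also read beside other genes of the stress pathways known to induce them. Of 16 integrated stress response genes 15 were tested and 10 rose with ethanol at 48 h (7.8% of all genes rose), none fell, and the median difference was 1.34. Large rises were those of ATF3 (4.40), DDIT3 (3.49) and ASNS (2.42), with limma adjusted p of 0.00125, 0.000356 and 0.000141, and NUPR1 was at 3.58. NUPR1 lay between 2.97 and 3.56 on the 15 arrays outside ethanol 48 h, near background. It entered the test only through the group where it is high. Its difference and its rank are therefore not exact, and its calls here and below carry no weight of their own. The counts and medians of this list include it. The 10 also passed without both ethanol replicate 3 arrays, with a median of 1.09. At 24 h none passed and the median was -0.01. From 24 h to 48 h in ethanol 10 rose (11.7% of all genes), and the step exceeded that in medium for 6 (1.59% of all genes passed): DDIT3, TRIB3, ASNS, SESN2, NUPR1 and VEGFA. Without both replicate 3 arrays 10 rose over the step, 9 of them shared, and 5 exceeded the step in medium (2.18%), 4 of them shared with the 6, with DDIT3 and SESN2 lost (limma, adjusted p = 0.0608 and 0.0687). Of 12 p53 target genes, a pathway also known to induce GDF15, 9 were tested, none rose, and XPC fell by 0.56 (limma, adjusted p = 0.048), with a median of -0.34. Without both replicate 3 arrays XPC was at -0.48 (limma, adjusted p = 0.0285) and the median was -0.11. Whether either pathway has a part in the INHBE and GDF15 levels was not tested.

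The genes whose values ran most like those of the members that passed were found by Pearson correlation over the 18 arrays, which share groups and replicates. For INHBE they were ZFAND1 (r = 0.975), DDIT3 (0.973) and ATF2 (0.969). For GDF15 they were SLC22A15 (0.951), SQSTM1 (0.95) and CD55 (0.943). For TGFBI they were SH3BGRL3 (0.926), APEX2 (0.924) and MYL9 (0.924). Without both ethanol replicate 3 arrays the INHBE values were 0.967, 0.968 and 0.963, the GDF15 values 0.903, 0.896 and 0.888, and the TGFBI values 0.927, 0.945 and 0.918. INHBE and GDF15 correlated at 0.81 over the 18 arrays and 0.88 over those 16, and INHBE and TGFBI at -0.77 and -0.86. INHBA and GDF15 correlated at -0.11 over 18 and -0.72 over 16.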

How the data were processed

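RNA of HK-2 cells was measured on 18 arrays in 6 groups of 3. The authors deposited log2 values made with GCRMA, per the submitters' processing notes; it corrects background by probe GC content, normalizes arrays and summarises probe sets. Its version and the arrays normalized together are not given in the sources used here, and the log2 scale was read from the values. Arrays have no read depth, and their number limits the precision.

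Of 54675 probe sets 41091 had 1 gene in the platform annotation. A probe set entered where it was above 4 on at least 3 arrays, and the one with the highest mean stood for its gene (10832 genes). Group means were fitted with limma 3.58.1 in R 4.3.3 on 18 arrays (12 residual and 2.65 prior degrees of freedom). Tests were two-sided, with Benjamini-Hochberg adjustment over all genes in each of 10 comparisons and a threshold of 0.05. SE is from the fit, SD from the 3 arrays. On data simulated for ethanol against medium at 48 h the test recovered 73 of 100 genes changed by 1 (log2) and 96 of 100 changed by 2, with 15 false calls. The simulated arrays were independent, with the same spread for a gene in every group. In the real data same-numbered arrays of several groups deviated together and ethanol replicate 3 stood apart, so these rates need not hold for them.

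Replicate numbers are shared between groups. Deviations of same-numbered arrays from their group means correlated at 0.526 to 0.731 among medium and DMSO groups. For ethanol 24 h with medium 24 h, DMSO 24 h and ethanol 48 h they correlated over 0.1 in every pair. Same-numbered arrays of these groups were therefore counted as paired. For ethanol 48 h with medium 48 h (lowest -0.083) or DMSO 48 h (lowest -0.005) they were not. The main fit of group means did not use this pairing and treated the arrays as independent. The replicate number entered only the fits described as having a block. The labels name no batch.

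The members, gene lists and tests were chosen with earlier results of these data known. Every member is described. From each list, up to 4 of the largest changes that passed in each direction are named, with a fixed set of receptors and SMADs, and for each member that passed in the 18-array fit the 3 most alike genes. Genes named without both ethanol replicate 3 arrays were chosen after their values were seen.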

Additional observations from a re-analysis of the deposited data

How the results depend on the processing

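INHBE and GDF15 with ethanol at 48 h kept their direction under every alternative run, and INHBE its call. Of 2018 recomputed differences of members 1901 kept direction and side of the threshold, 9 lost and 44 gained a call in the same direction, and 64 turned direction, none of them past the threshold in either fit. Members passing with ethanol against medium at 24 h were 0, and 2 with array weights or without both ethanol replicate 3 arrays. At 48 h they were 2, and 1 with the compared groups alone (2 to 3 when 1 array was left out). Against DMSO at 24 h they were 0, and 2 with array weights or without both ethanol replicate 3 arrays (0 to 1 when 1 array was left out). Against DMSO at 48 h they were 2, 1 with the compared groups alone and 4 without both replicate 3 arrays (2 to 3). From 24 h to 48 h in medium they were 0, 2 with array weights, 2 with the replicate block, 1 without both replicate 3 arrays and 6 with the block on 12 arrays. In DMSO they were 0, 1 with the replicate block, 1 without both replicate 3 arrays and 5 with the block on 12 arrays. In ethanol they were 3, and 1 with the compared groups alone (2 to 3). For the ethanol against the medium step they were 0, and 1 with array weights or the replicate block (0 to 2). The cause was not tested.

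With the replicate block, which does not pair ethanol 48 h with medium or DMSO at 48 h, TGFB1 passed there (limma, adjusted p = 0.0245 against medium and 0.0199 against DMSO). The block changed no call of a member other than these and those given beside the results.

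Directions turned as follows. For ethanol against medium at 48 h INHBA (0.14) was at -0.07 with the mean of probe sets, -0.16 with array weights, -0.29 on its second probe set and -1.19 without both ethanol replicate 3 arrays, where TGFB2 (-0.78) was at 0.33. Against DMSO at 48 h TGFB2 (-0.74) was at 0.37 without them, and INHBA (-0.31) at 0.09 on its second probe set. From 24 h to 48 h in ethanol TGFB2 and SMAD7 (both -0.07) were at 0.43 and 0.25 without them, and SMAD7 at 0.04 with array weights. For DMSO against medium at 24 h TGFBI was at 0.01 with quantile normalization, TGFB1 at -0.02 with array weights, and TGFB2 at 0.10 with the mean of probe sets and 0.02 and 0.31 on 2 other probe sets. At 48 h INHBA was at -0.38 on its second probe set.

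Leaving out 1 array in turn spanned 0 for these. Ethanol against medium ranged from -0.04 to 0.71 for INHBE and -2.66 to 0.15 for INHBA at 24 h, and from -1.19 to 1.17 for INHBA and -1.39 to 0.33 for TGFB2 at 48 h. Against DMSO INHBA ranged from -2.57 to 0.24 at 24 h and -1.64 to 0.72 at 48 h, and TGFB2 from -1.35 to 0.37 at 48 h. DMSO against medium at 24 h ranged from -0.61 to 0.10 (INHBE), -0.27 to 0.06 (INHBA), -0.25 to 0.41 (TGFB1), -0.20 to 0.12 (TGFB2) and -0.23 to 0.23 (TGFBI), and at 48 h from -0.36 to 0.05 (GDF15), -0.29 to 0.31 (TGFB1), -0.15 to 0.06 (TGFB2) and -0.06 to 0.18 (TGFBI). The TGFB1 time step ranged from -0.38 to 0.28 in medium and -0.42 to 0.18 in DMSO, and in ethanol the step ranged from -2.87 to 0.34 (INHBA), -0.68 to 1.04 (TGFB2) and -0.37 to 0.12 (SMAD7). The difference of steps ranged from -0.41 to 2.80 (INHBA), -0.63 to 0.03 (TGFB1) and -0.10 to 1.62 (TGFB2).

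Counts over all genes moved more. With ethanol against medium at 24 h 8 genes passed, and 0 with quantile normalization, median centring, trend and robust empirical Bayes or the compared groups alone, 15 with no filter, 5 with the mean of probe sets, 737 with array weights, 111 with the replicate block and 144 without both replicate 3 arrays (0 to 40 when 1 array was left out). At 48 h 1654 passed, 114 with the compared groups alone and 2811 with the block (861 to 2336). Against DMSO at 24 h 67 passed, 40 with quantile normalization, 34 with the mean of probe sets, 1244 with array weights, 0 with the compared groups alone, 353 with the block and 272 without both replicate 3 arrays (5 to 102). There 31 were higher and 36 lower, against 25 and 15 with quantile normalization and 41 and 30 with median centring. Against DMSO at 48 h 1934 passed, 174 with the compared groups alone and 3143 with the block (1098 to 2450). In medium 0 passed from 24 h to 48 h, 54 with array weights, 1 with the compared groups alone, 438 with the block, 42 without both replicate 3 arrays and 3227 on 12 arrays (0 to 2). In DMSO 0 passed, 95 with array weights, 2 with the compared groups alone, 257 with the block, 30 without both replicate 3 arrays and 3083 on 12 arrays (0 to 1). In ethanol 2493 passed, and 95 with those groups alone (1728 to 2563). For the difference of steps 172 passed, 580 with array weights, 52 with the compared groups alone and 508 with the block (89 to 653). For DMSO against medium at 24 h 0 passed, and 11 on 12 arrays (0 to 1).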

Other observations

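At 48 h the 6 medium and DMSO arrays read SMAD7 between 6.495 and 6.513, a range of 0.018 on the log2 scale, where the same 2 controls spanned 0.427 at 24 h. The median range over those 6 arrays at 48 h was 0.44 for the 10832 genes tested, and 30 genes, SMAD7 included, had a range as small. The standard deviation of SMAD7 in these groups is therefore far under that of most genes.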
